A study of Rattus norvegicus with 23 samples.

Results

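Dorsal striatal RNA of rats that kept taking methamphetamine (METH) under punishment was compared with that of rats that did not. The comparison held 17 of the 23 libraries of the study, chosen by sample label, with 1 library per rat. The 11 resistant rats pooled 6 always shock-resistant (ASR) rats and 5 delayed shock-resistant (DSR) rats, and the 6 remaining rats were always sensitive (AS). ASR rats were resistant in both punishment phases. DSR rats were sensitive in the first phase and resistant in the second, and AS rats were sensitive in both. All were wild-type adult male Long Evans rats with intravenous access to 0.1 mg/kg METH per infusion for 22 days, followed by 8 days on which presses could bring a footshock rising from 0.18 to 0.36 mA. After 15 days without drug they took METH again for 12 days and met footshocks of 0.30 mA on 3 days. A second abstinence of 15 days came before the tissue was taken. Drug seeking, as active lever presses without drug, was tested during both abstinences, and tissue was taken the day after the last test. On that test, the paper reports, ASR rats pressed more than AS rats, with no significant difference between ASR and DSR rats. The protocol was shared by all 3 groups, but METH and shocks were earned by the rats' own presses. The paper reports a higher METH intake in ASR and DSR than in AS rats over the second footshock days. Its behavioral results are from all its METH rats, which are more than the 17 compared here. The amounts of drug taken, of shocks received and of pressing on the last test cannot be told apart here from resistance itself. Assignment followed from behavior under punishment and was not randomized. The 6 saline control (CT) rats self-administered saline and received no footshocks. They were used to show where levels lay without METH and footshocks, and had no part in the main comparison. Their libraries also entered the scaling of levels and an alternative fit with all 23 libraries.

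The dorsal striatum is the part of the basal ganglia in which actions become habits. Most of its neurons are GABAergic projection neurons of the direct and the indirect pathway, which receive glutamate from the cortex and thalamus and dopamine from the midbrain. Continued drug taking despite punishment is used as a model of compulsive use. Neurons use many genes of unusual length, among them genes for synaptic adhesion molecules, ion channels and RNA-binding proteins, so the genomic span of a gene carries information on tissue such as this even where its name is not known. The files list Ensembl identifiers of rat genes without symbols, and genes are therefore described here by span, level and chromosome, and 4 by identifier. Striatal markers and markers of other cell types were not analysed here for the same reason.

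The METH libraries held from 19921481 counts (AS rat Grp8-R10) to 28137676 counts (DSR rat Grp7-L2). Depth moved with the groups. Resistant libraries averaged 25071000 ± 2029400 counts (SD, n = 11) and AS libraries 22148000 ± 1473000 (SD, n = 6), and this difference passed a two-sided exact permutation test (p = 0.00824, Benjamini-Hochberg adjusted p = 0.0247 over 6 library measures). The number of genes with at least 1 count differed as well, at 20420 ± 215 (SD, n = 11) against 20089 ± 188 (SD, n = 6; exact permutation p = 0.00606, adjusted p = 0.0247). A pair of AS libraries stood apart. In AS rat Grp7-R1 the genes of the mitochondrial genome took 19.6% of counts, against 11.9% to 13.3% in the other AS rats. AS rat Grp7-L10 lay among the resistant rats on the first principal component, which carried 31.5% of the variance of log2 levels in the 17 libraries. Its score was 5.22, the other AS rats scored -34.2 to -17.6, and the resistant rats -17.3 to 54.8.

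Many genes had slightly different levels in the groups by an unadjusted p, and with edgeR none passed correction for multiple testing. Of 16004 genes tested with edgeR's quasi-likelihood test, 0 (0%) had a Benjamini-Hochberg adjusted p under 0.05. The smallest adjusted p of edgeR was 0.0982, and 316 genes shared it. Below an unadjusted p of 0.05 were 3587 genes (22.4%), and this second, weaker rule is what "called" means here. Of these, 1953 (12.2% of genes tested) were higher and 1634 (10.2%) lower in resistant rats. Most of the differences were small. The median log2 fold change was 0.27 among the genes called higher, with an interquartile range of 0.17 to 0.45, and -0.25 among those called lower, with a range of -0.38 to -0.17. A change of at least 1.5-fold was reached by 487 called genes (3.04% of genes tested), 309 of them higher and 178 lower, and a change of at least 2-fold by 108.

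The adjusted calls depended on the tool and on a single rat. DESeq2, run on the same counts, gave 749 genes with an adjusted p under 0.05, of which 535 were higher and 214 lower in resistant rats. All 749 were also called by edgeR, in the same direction. Without AS rat Grp7-L10, edgeR gave 916 genes with an adjusted p under 0.05 (700 higher and 216 lower), of which 864 were called with all 17 rats, and 523 were among the 749 of DESeq2. Without any other single rat that count was 0, with a smallest adjusted p from 0.0576 without ASR rat Grp7-R10 to 0.245 without AS rat Grp7-R2. The count of called genes ran from 2492 without AS rat Grp7-R2 to 4201 without AS rat Grp7-L10. Genes called lower numbered 1073 without AS rat Grp7-R2 and 1085 without AS rat Grp7-R9. Called genes with at least 1.5-fold change numbered 775 without AS rat Grp7-L10. The plot of gene counts with each rat left out shows both counts.

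**Figure D1:**
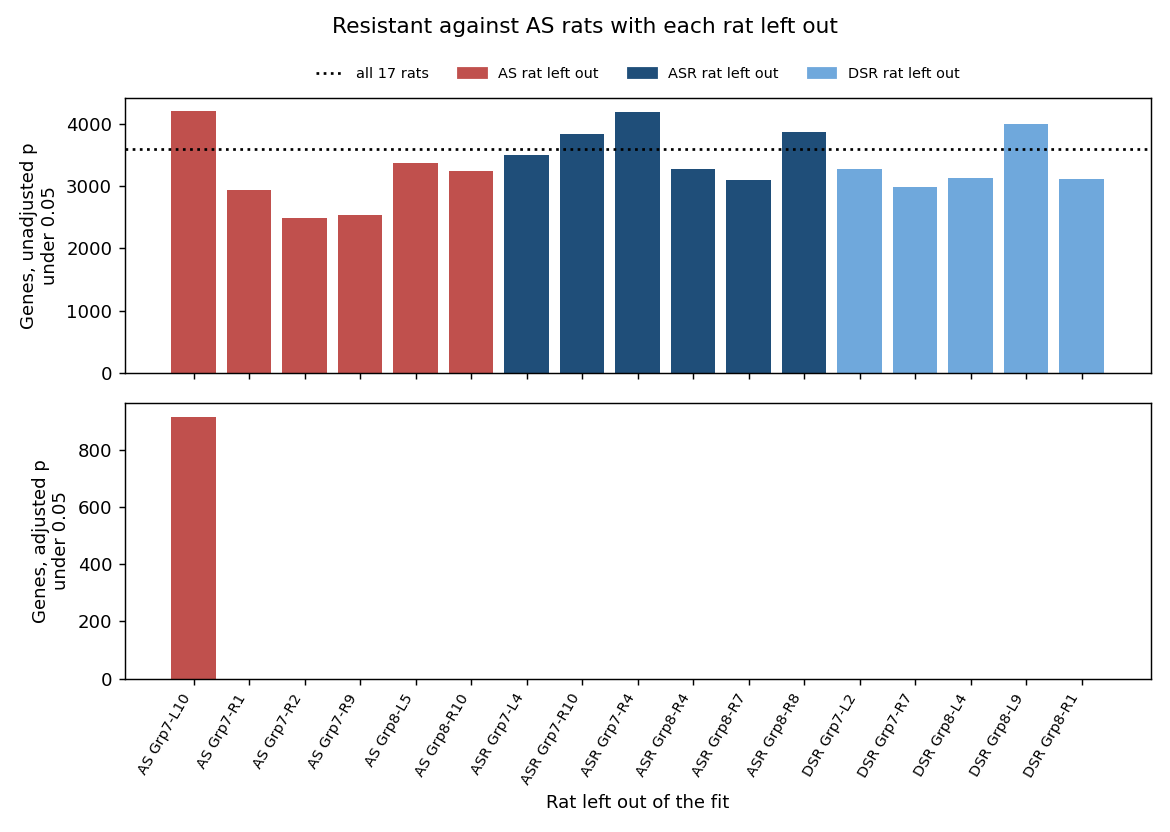
Number of genes with an unadjusted p under 0.05 (upper bars) and with an adjusted p under 0.05 (lower bars) in edgeR's comparison of resistant with AS rats when the rat named on the horizontal axis was left out. The dotted line is the count with all 17 rats, 3587; the lower bars stand at 0 except for the 916 genes found without AS rat Grp7-L10.

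The share of each rat in these differences can be read from its median level over the called genes. Levels are given as log2 CPM minus the mean of the 17 METH rats. CPM are counts scaled to the library total over the genes tested, adjusted by a normalization factor per library. METH rats were used to call these genes, so their values are a description. Over the genes called higher, 5 of the 6 AS rats lay between -0.26 and -0.14, and AS rat Grp7-L10 lay at 0.0067. DSR rats ranged from -0.05 to 0.32 with a median of 0.16, and ASR rats from -0.07 to 0.17 with a median of 0.06. ASR rats were thus nearer to the AS rats than DSR rats were, and resistant and AS rats did not separate completely. Over the genes called lower the order was turned around, with all 6 AS rats above 0 (0.06 to 0.23), ASR rats between -0.17 and 0.09 and DSR rats between -0.28 and 0.06.

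CT rats, which had no part in calling the genes, were on average at the level of the resistant rats. Over the 1953 genes called higher, the median difference on the log2 scale was 0.27 for resistant minus AS, 0.27 for CT minus AS and 0.0050 for CT minus resistant. Over the 1634 genes called lower it was -0.24, -0.24 and 0.0031. Over all 16004 genes the corresponding medians were 0.0047, -0.00064 and -0.0026. The first 2 differences in each set share the AS rats and the METH rats chose the genes, so the nearness of CT and resistant rats in these sets was not tested. The CT rats also varied widely among themselves, from -0.16 to 0.34 over the genes called higher and from -0.33 to 0.18 over those called lower. Both ranges overlapped those of all 3 METH groups.

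**Figure D2:**
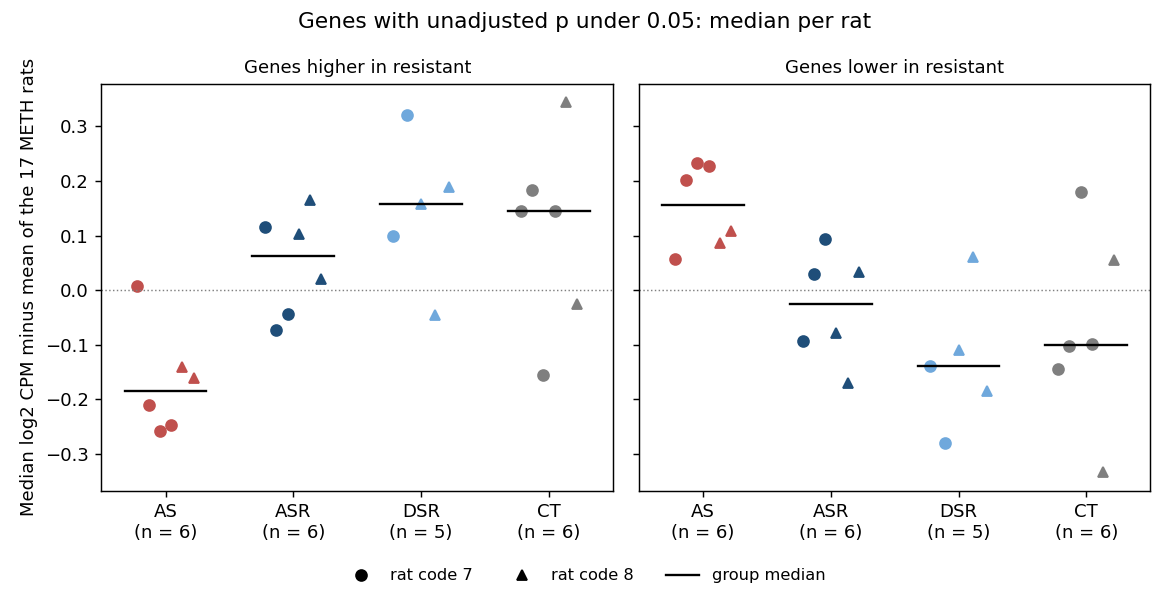
Median level of each rat over the 1953 genes called higher (left) and the 1634 genes called lower (right) in resistant rats, as log2 CPM minus the mean of the 17 METH rats. Points are rats, circles and triangles mark the number 7 or 8 in the rat code, and bars are group medians; AS rat Grp7-L10 lies near 0 in the left panel while the other AS rats lie below -0.14, and the 6 CT rats spread from -0.16 to 0.34.

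As examples 4 genes were taken, the pair with the smallest p in each direction. Only genes with a mean of at least 1 CPM and at least 1.5-fold change were eligible. The choice used the same rats, so the exact permutation p-values given for these genes are descriptions and no independent check. Those p-values were not corrected for the number of genes tested. ENSRNOG00000027233 is annotated on the minus strand of chromosome X (Rnor6.0, 115627653 to 115908693), spans 281041 bases with 3873 exonic bases, and overlaps 1 other annotated gene. In AS rats its level was 1.17 CPM at the lowest, 1.49 at the median and 2.03 at the highest, from 25 to 47 counts. The 6 ASR rats had 1.74 at the lowest, 3.17 at the median and 3.87 at the highest, and the 5 DSR rats had 2.37, 4.88, 3.54, 3.06 and 3.06 CPM. All but ASR rat Grp7-R10 lay above every AS rat. Resistant rats averaged 3.18 ± 0.87 CPM (SD, n = 11) and AS rats 1.54 ± 0.29 (SD, n = 6), a log2 fold change of 1.03 ± 0.19 (SE, edgeR adjusted p = 0.0982; two-sided exact permutation p = 0.000162). CT rats ranged from 1.25 to 5.94 CPM and covered both groups.

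ENSRNOG00000004890, on the minus strand of chromosome 7 (105353913 to 105592804, 238892 bases with 4587 exonic bases, no overlapping gene), separated the groups completely. AS rats had 4.23 CPM at the lowest, 4.77 at the median and 5.58 at the highest. ASR rats had 5.79, 7.55 and 10.3 CPM at the same points, and the 5 DSR rats 7.72, 7.40, 7.002, 6.01 and 10.5 CPM. Every resistant rat was thus above every AS rat, although the gap between AS rat Grp7-L10 (5.58) and ASR rat Grp7-R10 (5.79) was narrow. Resistant rats averaged 7.63 ± 1.53 CPM (SD, n = 11) against 4.80 ± 0.54 (SD, n = 6), a log2 fold change of 0.66 ± 0.13 (SE, edgeR adjusted p = 0.0982). The exact permutation p was 8.08e-05, the smallest that 11 against 6 rats can give. It is a description, because the gene was chosen by its small p in these same rats. CT rats ranged from 3.75 to 11.7 CPM, below the lowest and above the highest METH rat.

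Both genes called lower had overlapping groups. ENSRNOG00000005826, a single-exon gene of 570 bases on the plus strand of chromosome 6 (146394456 to 146395025), was low in most rats and high in a few. AS rat Grp7-R9 had 8.51 CPM (205 counts) and AS rat Grp8-R10 had 8.56 (172 counts), whereas the other 4 AS rats had 0.74, 1.23, 0.99 and 0.67 CPM. Resistant rats ranged from 0.36 to 0.92 CPM, from 9 to 25 counts. The log2 fold change of -2.42 ± 0.49 (SE, edgeR adjusted p = 0.0982; exact permutation p = 0.00323) therefore rested largely on 2 rats. A CT rat, Grp7-R6, reached 9.74 CPM, and the other CT rats 0.32 to 0.88. ENSRNOG00000059900, on the minus strand of chromosome 16 (19938784 to 19942353, 3570 bases with 837 exonic bases), was lower in a more even way. AS rats had 10.8 CPM at the lowest, 13.8 at the median and 18.1 at the highest, and resistant rats 6.60, 8.73 and 12.6, so that 9 of 11 resistant rats lay below every AS rat. Means were 9.14 ± 1.86 CPM (SD, n = 11) and 14.1 ± 3.01 (SD, n = 6), a log2 fold change of -0.63 ± 0.14 (SE, edgeR adjusted p = 0.0982; exact permutation p = 0.00113). CT rats ranged from 7.78 to 12.2 CPM.

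**Figure D3:**
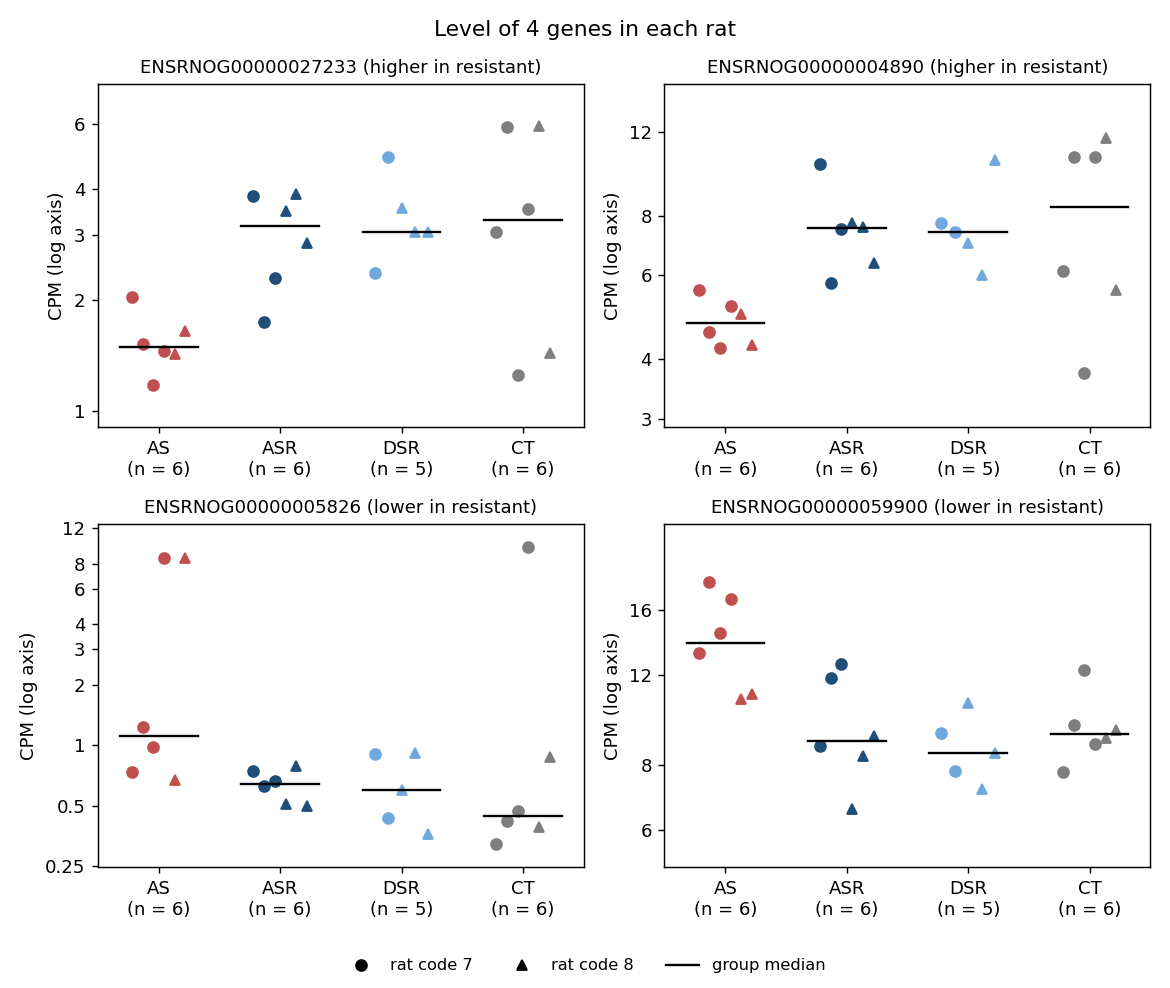
Level of 4 genes in each rat in CPM on a log axis, with points for rats, circles and triangles for the number 7 or 8 in the rat code, and bars for group medians. ENSRNOG00000004890 is the gene for which every resistant rat (5.79 CPM and above) lies above every AS rat (5.58 CPM and below), and ENSRNOG00000005826 shows 2 AS rats and 1 CT rat above 8 CPM and all others below 1.3 CPM.

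The number 7 or 8 in the rat codes, which the labels do not explain, was unevenly spread over the groups. AS held 4 rats of code 7 and 2 of code 8, ASR 3 and 3, and DSR 2 and 3. Within code 7 (5 resistant against 4 AS rats) the log2 fold changes of the 4 genes were 0.95, 0.65, -2.10 and -0.65, in the order given above, with exact permutation p from 0.0159 to 0.0397. Within code 8 (6 against 2) they were 1.11, 0.70, -2.90 and -0.38, and the exact permutation p was 0.0357 for both higher genes, the smallest possible there, and 0.107 and 0.0714 for the lower genes. The genes were chosen in these same rats, so the shared direction in both codes and the small p-values within them are descriptions and no independent check. Across all genes the balance of calls was not. Within code 7, 814 genes were called higher and 994 lower, whereas within code 8, 1336 were called higher and 632 lower. Code 8 alone gave 104 genes with an edgeR adjusted p under 0.05, 101 of them higher in resistant rats, from a comparison that has only 2 AS rats. With the code number as a covariate 3166 genes were called and 0 passed adjustment.

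Complete separation of the groups was rare. For 18 genes (0.112% of genes tested) every resistant rat lay above every AS rat, and for 4 genes (0.025%) every resistant rat lay below. The median log2 fold change of the 18 was 0.32 and their median level 28.8 CPM, and only 3 of them differed by at least 1.5-fold. For the 4, the median log2 value was -0.29 and none reached 1.5-fold. The span of these genes differed as well, with a median of 81.4 kb for the 18 and 4.93 kb for the 4, beside 19.6 kb for all genes tested.

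Longer genes were called higher more often than shorter ones. Span is the distance from the first to the last annotated exonic base. Genes called higher had a median span of 40.4 kb and genes called lower one of 14.4 kb. Among the 3236 genes spanning under 5 kb, 7.23% were called higher and 11.1% lower. The share called higher then increased with each span class, to 8.29% from 5 to 20 kb, 11.7% from 20 to 50 kb, 17.7% from 50 to 100 kb, 22.4% from 100 to 200 kb, 28.6% from 200 to 500 kb and 36.6% in the 112 tested genes of 500 kb or more. The share called lower was 12.8% from 5 to 20 kb, above that of the shortest genes, then 10.2% from 20 to 50 kb and 7.74%, 5.56%, 4.64% and 2.68% in the last 4 classes. Of the 117 genes in the files that span 500 kb or more, 112 were tested, 41 of them were called higher and 3 lower, and 90 had a positive log2 fold change. Their median log2 fold change was 0.16, beside -0.0031 for all genes. Without ASR rat Grp7-R4 or AS rat Grp7-L10 the number called lower was 6, and without DSR rat Grp8-L9 it was 5. Those genes ranged in log2 fold change from -0.76 to 1.32, so the class was not uniform, and none of them separated the groups completely.

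The ordering by span was present in both kinds of resistant rats and, with 1 exception, within classes of level and exonic length. For genes of 500 kb or more the median log2 difference from AS was 0.11 in ASR and 0.20 in DSR rats, for genes of 200 to 500 kb it was 0.06 and 0.14, and for genes under 5 kb -0.03 and -0.04. These pairs share the AS rats. The median for 500 kb or more was 0.18 within code 7 and 0.10 within code 8. Span goes with level and with transcript length, and the classes were therefore split by both. Among genes of 64 CPM or more, 31.9% of those spanning 100 kb or more were called higher, against 20.7% from 20 to 100 kb and 11.7% under 20 kb. At 4 to 16 CPM the shares were 23.2%, 10.2% and 8.30%. Among genes with 2 to 4 kb of exonic sequence they were 24.4%, 12.4% and 9.15%. The exception was the genes with under 1 kb of exonic sequence, at 6.9%, 10.1% and 5.64%, of which only 29 spanned 100 kb or more. Genes of low level were rarely called in either direction, with 5.98% higher and 5.06% lower under 1 CPM.

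**Figure D4:**
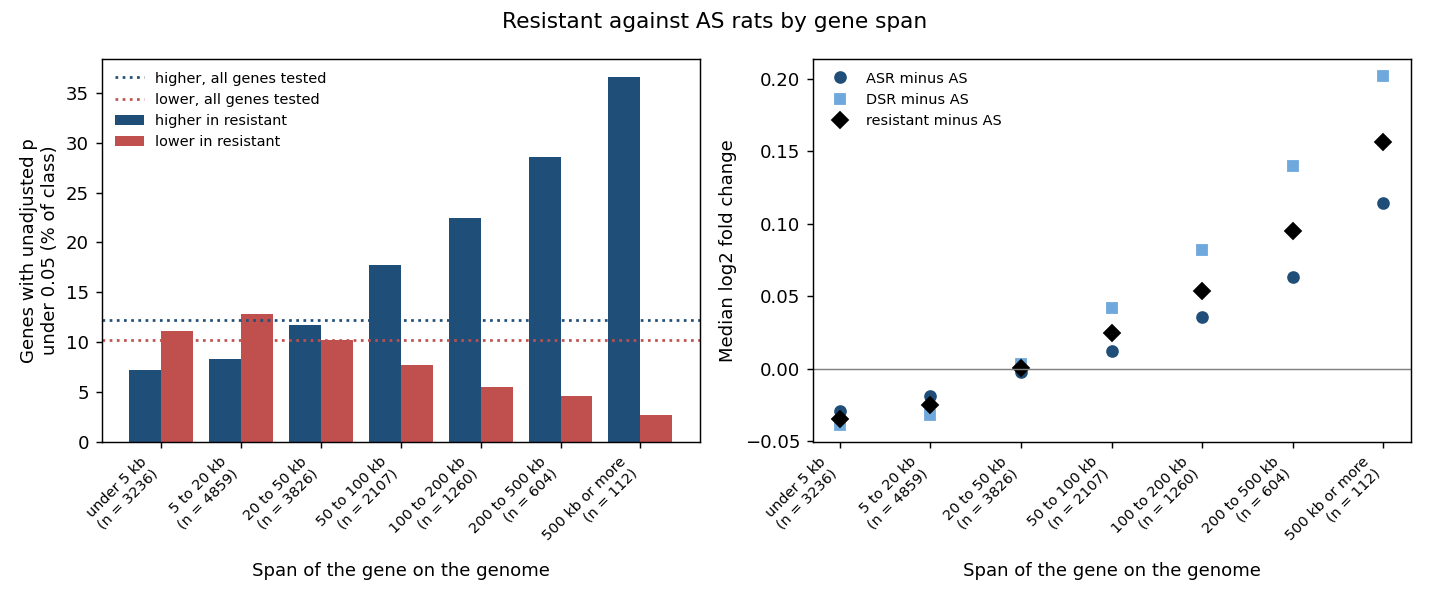
Left, share of the genes of each span class called higher or lower in resistant rats at an unadjusted p under 0.05, with dotted lines for all genes tested (12.2% higher and 10.2% lower). Right, median log2 fold change of each class for the pooled resistant rats and for ASR and DSR rats apart, all against the same AS rats; the medians go from -0.03 under 5 kb to 0.16 at 500 kb or more for the pooled rats.

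Each rat's median over these long genes showed how far the groups overlapped. For the 112 genes of 500 kb or more, as log2 CPM minus the mean of the METH rats, all 6 AS rats were below 0, at -0.17, -0.16, -0.16, -0.05, -0.05 and -0.04. DSR rats were at 0.10, 0.26, 0.12, -0.03 and 0.10, and ASR rats ranged from -0.08 to 0.18 with a median of -0.02 and 2 of 6 above 0. All DSR rats thus exceeded all AS rats, and ASR rats lay among both. The 3 ASR rats of code 7 were at -0.03, -0.07 and -0.08 and those of code 8 at 0.09, 0.18 and just under 0. CT rats were the most scattered, from -0.14 to 0.32 with 3 of 6 above 0. For genes under 5 kb the spread was small, with AS rats between 0.0020 and 0.06 and DSR rats between -0.03 and 0.04.

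The share of all counts that fell in genes of 500 kb or more scales each library by its own total alone, so it moves with whatever else the library holds. AS rat Grp7-R1, with the highest mitochondrial share, had the lowest share in these genes (0.471%). The share was 0.597% ± 0.056 in resistant rats (SD, n = 11) and 0.525% ± 0.040 in AS rats (SD, n = 6), a difference of 0.072 percentage points (exact permutation p = 0.0141, adjusted p = 0.0281 over the 6 library measures). Without AS rat Grp7-R1 the difference was 0.0613 points (exact permutation p = 0.0403). ASR rats had 0.574% ± 0.048 (SD, n = 6), DSR rats 0.624% ± 0.057 (SD, n = 5) and CT rats 0.606% ± 0.074 (SD, n = 6). Within code 7 the difference was 0.070 points (exact permutation p = 0.151) and within code 8 0.060 points (p = 0.0714, where 0.0357 is the smallest possible in this exact test), so neither code alone passed. The share in genes of 100 kb or more was 12.9% against 12.6% and did not pass (exact permutation p = 0.209). Library depth differed in the same direction as these shares between resistant and AS rats. CT libraries averaged 21798000 ± 1601400 counts (SD, n = 6), beside the AS mean of 22148000. Their share in genes of 500 kb or more ranged from 0.514% to 0.719%. With the log2 library total as a covariate, 2575 genes were called and the median log2 fold change of the longest genes was 0.21, and with all libraries thinned to the smallest total the values were 3458 and 0.17. In a bulk tissue sample, fewer cells of a type and less RNA per cell cannot be told apart, and RNA integrity per sample was not used here.

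**Figure D5:**
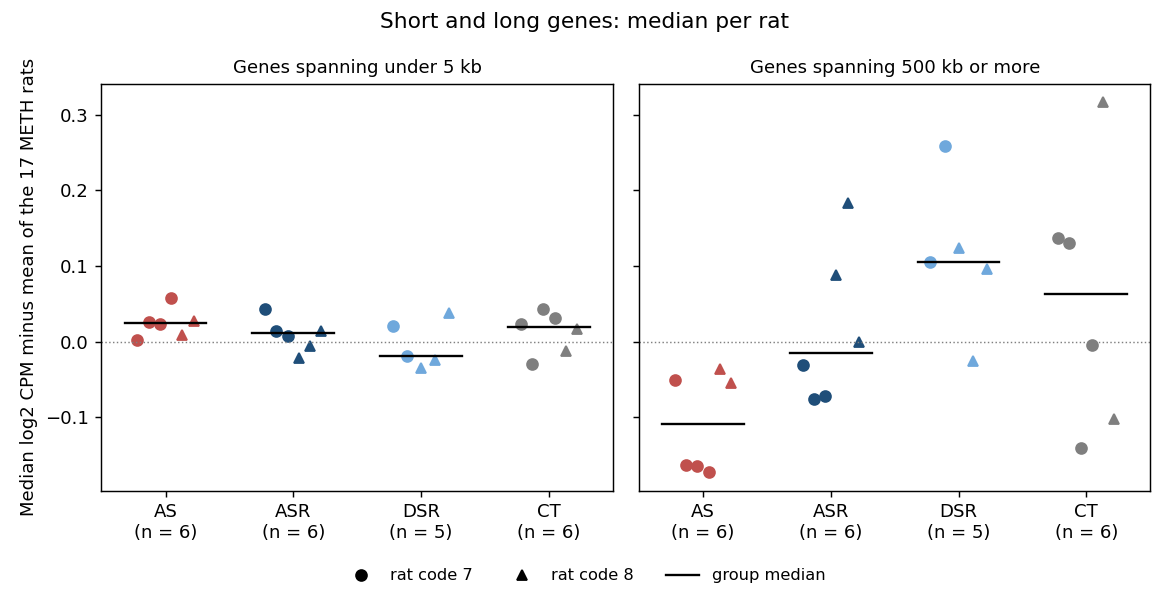
Median level of each rat over the genes spanning under 5 kb (left) and over those spanning 500 kb or more (right), as log2 CPM minus the mean of the 17 METH rats. Points are rats, circles and triangles mark the number 7 or 8 in the rat code, and bars are group medians; on the right all 6 AS rats lie below 0 and the CT rats spread from -0.14 to 0.32.

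The mitochondrial genome encodes subunits of the respiratory chain and the rRNAs and tRNAs of mitochondria. Of its 35 genes in the files 30 were tested, and 0 were called at an unadjusted p under 0.05 by edgeR or by DESeq2. Their median log2 fold change was -0.0051, with a range from -0.26 to 0.27. They took 13.7% ± 1.35 of counts in resistant rats (SD, n = 11) and 13.8% ± 2.88 in AS rats (SD, n = 6; exact permutation p = 0.948). Without AS rat Grp7-R1, which had 19.6%, 5 of the 30 were called higher in resistant rats and the median was 0.14.

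The pooling itself was examined by comparing ASR with DSR rats. Of the 16004 genes, 0 had an edgeR adjusted p under 0.05 (smallest 0.316) and 980 (6.12%) had an unadjusted p under 0.05, 561 of them higher and 419 lower in ASR rats. Among the genes called higher in the pooled comparison 5.27% differed in this way, and among those called lower 11.3%. The 4 example genes differed between ASR and DSR rats by log2 values of -0.17, -0.03, -0.01 and 0.14, with edgeR adjusted p of at least 0.848. They were chosen by smallest p in the pooled comparison, which favors genes with little spread among resistant rats, so these values are no check of the pooling. Against AS rats the DSR rats showed the larger departure. In a fit with 3 groups, 4403 genes had an unadjusted p under 0.05 for DSR against AS and 7 passed adjustment (smallest edgeR adjusted p = 0.0495), whereas 1612 and 0 did for ASR against AS. The 7 were lost when DSR and AS rats were fitted without the ASR rats, where 0 passed (smallest edgeR adjusted p = 0.0733) and 4157 had an unadjusted p under 0.05. The median log2 difference of the genes called higher was 0.33 in DSR and 0.21 in ASR rats, and of those called lower -0.30 and -0.20. With ASR and DSR rats weighted equally instead of by number, 3886 genes were called and 0 passed adjustment.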

How the data were processed

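Poly(A) RNA from the dorsal striatum was sequenced with paired-end reads. Per the submitters' notes and the paper's methods, the authors used Trimmomatic 0.36 for trimming, STAR 2.5.2b for mapping to Rnor6.0, and featureCounts (Subread 1.5.2) for unique reads in exons. The deposited values are raw counts for 32552 genes, and whether strand was used in counting is not given in the sources used here. How reads over antisense or overlapping genes were assigned is therefore not known here.

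Groups came from the sample labels, which describe each library as a separate rat. Between rats of a group the chi-square per gene was 6.49 to 54.7 over 40 pairs. The members, lists and tests were chosen with earlier results of these data known.

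From the counts of the 17 METH libraries, edgeR 4.0.16 in R 4.3.3 (filterByExpr with minimum count 10 and minimum total 15, TMM, quasi-likelihood test with 15 residual degrees of freedom, Benjamini-Hochberg adjustment) compared 11 resistant with 6 AS rats. The filter left 16004 of 25154 genes with any count. CPM uses TMM factors of all 23 libraries (0.941 to 1.05). Standard errors are those implied by the F statistic. Exact permutation tests are two-sided, on log2 CPM (prior count 2) or on the library measure, over all 12376 splits. Totals of 19921481 to 28137676 counts leave counting error in genes near 1 CPM.

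The reference table matched 0 identifiers to a symbol, so 32 lists defined by symbol were not analysed here, and 2 defined by position were. The rule for named genes then allowed 2 identifiers higher and 2 lower with the smallest p, at least 1.5-fold change and a mean of at least 1 CPM. Alternatives were RLE factors, no filter, DESeq2 1.42.0, equal weights, all 23 libraries, the code number, a robust fit and each rat left out. Library total as a covariate, thinning, and ASR or DSR rats alone were added after the data were seen.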

Additional observations from a re-analysis of the deposited data

Results flagged for a closer look

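Library measures, the 4 example genes and the per-rat medians by span were screened for single rats far from their own group, over 68 groups of 5 or 6 rats, and 4 were flagged. Such a screen flags about 1 in 20 groups by chance. In AS rat Grp7-R1 the mitochondrial share was 19.6% of counts, with 13.3% as the next highest AS rat, and the 10 most abundant genes took 20.2% of counts, with 15.2% as the next. Genes with any count numbered 20398 in CT rat Grp7-R6 and from 20024 to 20122 in the rest of that group. The same rat had 9.74 CPM of ENSRNOG00000005826, against 0.32 to 0.88 CPM in the other CT rats. Of these rats only AS Grp7-R1 entered the comparison of resistant with AS rats, and without it 2934 genes had an unadjusted p under 0.05.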

How the results depend on the processing

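No paired analysis was possible because no rat code is shared between groups. The count of genes with an edgeR adjusted p under 0.05, 0 with all 17 rats, became 749 with DESeq2 (which left 2173 genes without an adjusted p) and 104 in code 8 alone, and ran from 0 to 916 with each rat left out. The smallest adjusted p then ran from 0.0108 to 0.245. Genes with an unadjusted p under 0.05 (3587) numbered 1808 in code 7, 1968 in code 8 and 1756 with ASR rats only, and 2492 to 4201 with each rat left out. Those higher (1953) numbered 814 in code 7 and 1012 with ASR rats only, and 1419 to 2330. Those lower (1634) numbered 994 in code 7, 632 in code 8 and 744 with ASR rats only, and 1073 to 2005. Those with 1.5-fold change (487) numbered 1173 without the filter on low counts, 291 with ASR rats only and 795 with DSR rats only, and 371 to 775. The settings with fewer rats have less precision by construction, and otherwise the cause was not tested. The other 52 recomputed gene counts moved by less than 1.5 times.

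The 4 example genes kept direction and an unadjusted model p under 0.05 in every edgeR and DESeq2 alternative run, which their choice by smallest p in these rats favors. By the exact permutation test the lower genes did not pass within code 8 (p = 0.107 and 0.0714). The median of the longest genes stayed positive, from 0.10 in code 8 to 0.21 with library total as a covariate. With each rat left out, the resistant minus AS difference ran from -0.457 to 1.07 points for the mitochondrial share and from -1.07 to 0.383 for the share of the 10 most abundant genes, and changed sign in both. It kept its sign for total counts (2477000 to 3335000), genes detected (270.2 to 382.9) and the share in genes of 500 kb or more (0.0604 to 0.0822). Depth limits genes near 1 CPM, where 1 library can hold under 30 counts.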

Other observations

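Chromosome X stood somewhat apart among the chromosomes. Of its 537 tested genes 19.4% were called higher and 8.01% lower in resistant rats, beside 12% and 10.3% of the autosomal genes. The X genes called higher were not only the long ones. Under 20 kb, 15.7% of X genes were called higher, against 7.61% of autosomal genes, and from 20 to 100 kb 20.2% against 13.6%. At 100 kb or more the shares were 30.8% and 24.9%. The median log2 fold change of X genes was 0.04 (0.06 within code 7 and 0.03 within code 8), and no X gene separated the groups completely. On chromosome 20 the balance was the other way, with 7.56% of 476 genes called higher and 14.3% lower. Their median log2 fold change was -0.03. On chromosome 6, 16.1% of 725 genes were called higher. Neither chromosome 20 nor chromosome 6 was split by span. These are descriptions over genes that are not independent of each other, and no test was made.

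Genes with a longer exonic sequence were called higher more often, with 20.7% of the 3133 genes of 4 kb or more against 6.03% of the 2240 genes under 1 kb, and lower less often, with 6.86% against 10.1%. Within the genes that span under 20 kb, the shares called higher were 16.7% and 5.64%, and those called lower were alike, at 10.5% and 10.4%. The median levels of these short-span genes were 34.7 and 2.67 CPM, and exonic length was not split by level. The spread between rats, as the median over genes of the SD of log2 CPM, was 0.162 in AS, 0.169 in ASR, 0.179 in DSR and 0.198 in CT rats.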
